A study of Mus musculus with 20 samples.

Results

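The genes of cholesterol and fatty acid synthesis were followed in mouse bone marrow stromal cells from mice in which the gene for the transcription factor Ebf1 was or was not floxed for deletion by Cre. The members are 30 genes chosen by symbol, of 24347 symbols measured. They were chosen with earlier results of these data known. Their shares beside those of all genes are therefore descriptive and not independent support. They form a sterol branch of 21 genes, from acetyl-CoA to cholesterol with its regulators, and a fatty acid branch of 9 genes. All 30 symbols were present in all 12 RNA tables. Of these, 29 (21 sterol and 8 fatty acid genes) were at 1 FPKM or more in at least 3 libraries and were tested among 12938 genes. The deposited values are in FPKM, a count of sequenced fragments divided by transcript length and by the fragments mapped in the library.

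Cells were sorted from digested femora and tibiae of C57BL/6 mice, and each group had 3 libraries. CAR cells, the CXCL12-abundant reticular cells that support blood stem cells, were CD45-CD31-Lin-PDGFRα+Sca1-. PaS cells, mesenchymal progenitors, passed the same gates but were Sca1+. The wt groups were Ebf1+/+;Prx1+/cre and the ko groups Ebf1fl/fl;Prx1+/cre, so all 4 groups carried Prx1-cre, which acts in limb mesenchyme. Age, sex and pooling of animals are not given in the sources used here.

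Cells make cholesterol from acetyl-CoA through mevalonate, squalene and lanosterol, and fatty acids from acetyl-CoA through malonyl-CoA and palmitate. The transcription factor SREBP2, encoded by Srebf2, switches on the sterol genes when membrane sterol is low, and SREBP1, encoded by Srebf1, acts mainly on the fatty acid genes. Insig1 holds both factors in the endoplasmic reticulum when sterol is plentiful, and it is itself a target of SREBP. In the marrow, stromal cells of these lineages give rise to bone, fat and the niche of blood stem cells.

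The start regions of 4 members that move in the results are shown first, because SREBP binds such sequences. They are the 250 bases before the annotated start in RefSeq, build GRCm38.p6, the same build as the submitters' mm10, written 5′ to 3′ on the strand of the gene. Capitals mark TCACNCCA, the core of a sterol response element, and CCAAT, the box of the cofactor NF-Y, on either strand (CCAAT on the opposite strand reads ATTGG).
Hmgcs1, chr13:119690101-119690350, plus strand: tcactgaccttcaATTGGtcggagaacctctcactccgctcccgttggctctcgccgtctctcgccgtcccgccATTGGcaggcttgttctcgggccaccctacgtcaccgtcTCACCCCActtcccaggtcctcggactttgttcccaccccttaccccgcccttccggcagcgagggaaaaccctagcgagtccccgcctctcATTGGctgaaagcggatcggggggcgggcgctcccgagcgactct
Srebf2, chr15:82147019-82147268, plus strand: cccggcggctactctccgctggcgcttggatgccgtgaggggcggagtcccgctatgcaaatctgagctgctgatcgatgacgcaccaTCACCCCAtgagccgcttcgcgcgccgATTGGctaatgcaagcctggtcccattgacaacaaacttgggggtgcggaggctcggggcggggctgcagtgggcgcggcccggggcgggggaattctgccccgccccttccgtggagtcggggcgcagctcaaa
Msmo1, chr8:64733579-64733828, minus strand: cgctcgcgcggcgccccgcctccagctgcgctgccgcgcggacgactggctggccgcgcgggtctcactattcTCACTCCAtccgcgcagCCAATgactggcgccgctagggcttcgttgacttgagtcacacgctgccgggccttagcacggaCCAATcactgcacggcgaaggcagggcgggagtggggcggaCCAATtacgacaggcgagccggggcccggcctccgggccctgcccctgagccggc
Insig1, chr5:28071162-28071411, plus strand: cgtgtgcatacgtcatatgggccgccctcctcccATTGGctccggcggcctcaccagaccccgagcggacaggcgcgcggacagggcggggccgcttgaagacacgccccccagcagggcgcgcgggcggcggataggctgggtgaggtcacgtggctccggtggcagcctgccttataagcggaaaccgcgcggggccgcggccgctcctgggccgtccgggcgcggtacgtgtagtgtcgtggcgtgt

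The first base of TCACNCCA lay 137 bases before the start in Hmgcs1, 162 in Srebf2 and 177 in Msmo1. A RefSeq window of 300 bases (250 before and 50 after the start) was listed for 23 members, some with more than 1, giving 28 windows. Only these 3 members held TCACNCCA, in 3 of the 28 windows (10.7%). It was in 4.36% of 32851 windows of all genes and 3.79% of the 12502 windows of tested genes. The longer form TCACNCCAC was found in Hmgcs1 alone of the 23 (3.57% of member windows), against 1.24% of all windows and 1.11% of those of tested genes. CCAAT occurred in 19 of the 23 members and in 71.4% of their windows, against 37.4% of all windows and 37.2% of those of tested genes. GGGCGG, the GC box, was also in 19 of the 23 and in 75.0% of their windows, against 35.7% of all windows and 61.7% of those of tested genes. TCACGTGA, an E-box palindrome, was in none of the 23 and in 0.974% of all windows and 1.82% of those of tested genes. CCCNNGGG, the core letters of an EBF site, were in windows of Dhcr7, Elovl6 and Srebf1, 3 of the 23. This was 10.7% of member windows, against 13.7% of all windows and 18.3% of those of tested genes. All motifs were searched on both strands, and a match is a description of letters and not of binding. Sqle, Scd1, Scd2, Fdft1, Fdps, Fads1 and Stard4 had no entry in the table used.

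The libraries had 491801 to 526074 summed FPKM and 11863 to 12295 genes at 1 FPKM or more. FPKM is already divided by the fragments mapped, so these sums do not show the size or depth of a library. One library was unlike the rest: PaS wt replicate 1 had 24.6% zeros among its genes, the remaining 11 had 33.3% to 37.0%. Markers followed the gates in that Cxcl12 and Lepr were higher in CAR cells, with mean values of 715 and 620 FPKM for Lepr in CAR wt and CAR ko and of 255 and 251 in PaS wt and PaS ko. Ly6a, which encodes Sca1, had mean values of 4.66 and 8.82 FPKM in CAR wt and CAR ko against 1963 and 1551 FPKM in PaS wt and PaS ko. Ptprc, which encodes CD45 and was gated out, was still detected, at means of 6.46 and 2.503 FPKM in wt and ko CAR cells and of 11.8 and 8.54 FPKM in wt and ko PaS cells. Ebf1 itself was not lower in libraries labelled ko, at 48.1 ± 1.10 (CAR wt), 57.5 ± 1.99 (CAR ko), 55.9 ± 5.89 (PaS wt) and 62.5 ± 2.18 FPKM (PaS ko; SD, n = 3 each). Exons that the floxed allele leaves in place still count toward a whole-gene FPKM, so the labels are not checked by it.

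Expression of the members was highest in PaS wt cells. The summed FPKM of the 30 members was 338 to 362 for CAR wt, 374 to 386 for CAR ko, 549 to 574 in PaS wt and 439 to 454 in PaS ko libraries. The sterol branch alone summed to 206 to 211, 218 to 226, 303 to 318 and 241 to 255 FPKM in the same order, and the fatty acid branch to 132 to 150, 151 to 167, 246 to 257 and 198 to 200 FPKM. For both branches the PaS wt libraries lay above all others, the PaS ko libraries came next, and the CAR libraries were lowest. PaS wt had the highest group mean for 23 of 29 members, against 26.9% of all tested genes. Idi1, 1 of the 23, reached 1 FPKM only in PaS libraries, so its place in this count is no independent support. These are bulk samples, in which fewer cells of a type and less RNA per cell cannot be told apart.

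**Figure D1:**
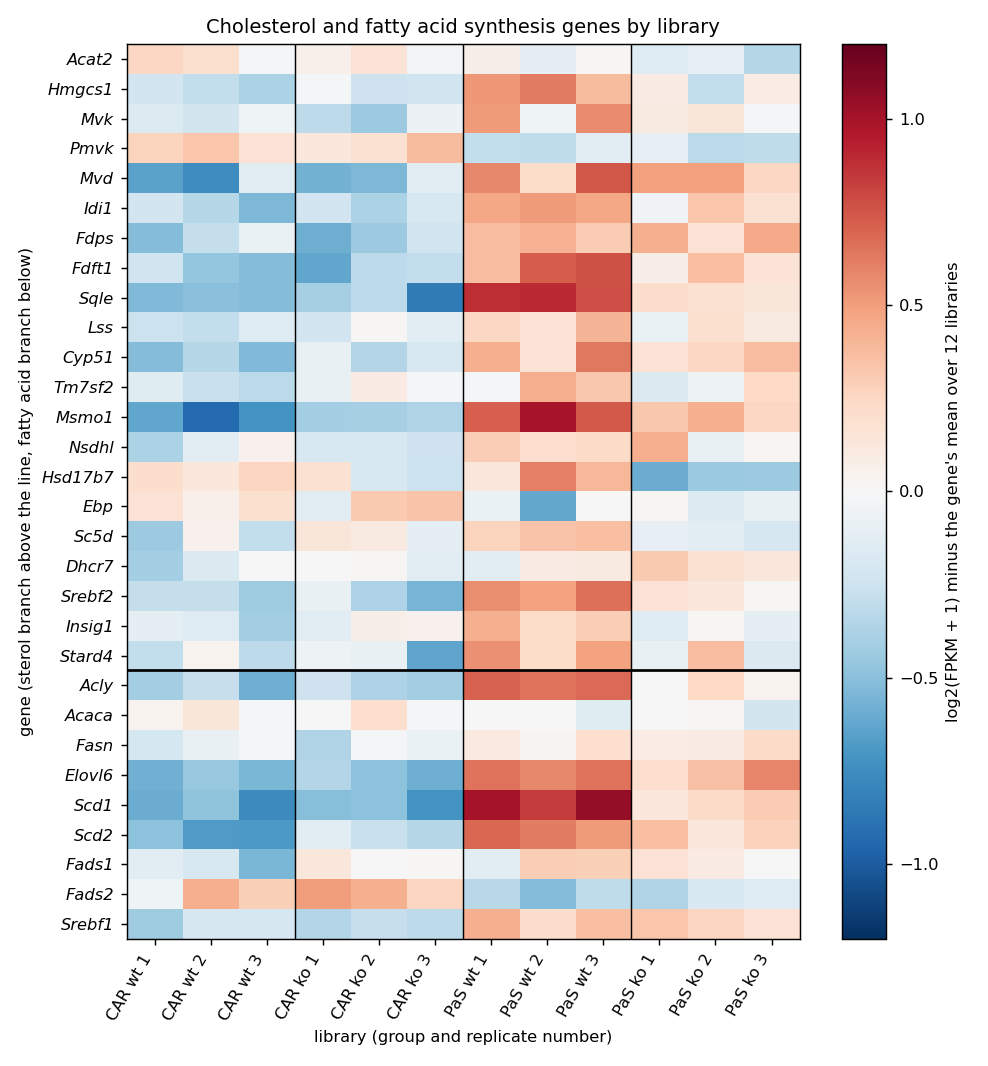
Level of each of the 30 members (rows) in the 12 libraries (columns), as log2(FPKM + 1) minus the gene's mean over the libraries; red is above and blue below that mean, and the thick line parts the sterol from the fatty acid branch. The 3 PaS wt columns hold most of the deepest red cells, and Pmvk, Ebp and Fads2 run the other way.

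Members differed widely in level, from the most to the least abundant. Over the 12 libraries Scd2, Ebp, Acly and Fads1 averaged 37.0, 36.8, 36.1 and 35.9 FPKM, all among the more abundant tested genes. Lss, Tm7sf2 and Mvd averaged 1.83, 2.15 and 2.95 FPKM. Idi1, the isomerase that makes dimethylallyl diphosphate, was just inside the filter with 5 libraries at 1 FPKM or more, all of PaS cells, and a mean of 1.10 FPKM. Acaca, the acetyl-CoA carboxylase that makes malonyl-CoA, was just outside it, with 2 such libraries and a range of 0.608 to 1.16 FPKM. The other 28 were at 1 FPKM or more in every library, and no member was listed at 0.

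In PaS cells, ko libraries had less RNA of the synthesis genes. Of 29 tested members, 10 fell and none rose (limma, Benjamini-Hochberg adjusted p under 0.05 over all tested genes), which is 34.5%. In the same comparison 7.44% of all tested genes were called, 4.03% as lower and 3.41% as higher. The median log2 fold change, ko minus wt, of log2(FPKM + 1) was -0.25 over the members and 0.00 over all genes. At an unadjusted p under 0.05 there were 11 members, all lower, Fdft1 being the one added, against 19.3% of all genes in either direction. The values of the 10 did not overlap between wt and ko libraries. In all, 12 members had lower ko libraries with no overlap, the others being Idi1 and Fdft1, against 11.9% of all genes. Only 1, Dhcr7, had higher ones, against 11.5% of all genes. Idi1 could pass the filter through its PaS wt libraries alone, so its place among the 12 is no independent support.

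In the early mevalonate steps, Hmgcs1 was the only one of 5 tested genes called. Hmgcs1 encodes HMG-CoA synthase, an early enzyme of the mevalonate pathway, and its PaS wt libraries had 36.8, 39.3 and 33.4 FPKM against 27.3, 20.53 and 27.1 in PaS ko. The lowest wt library was above the highest ko library. The log2 fold change was -0.54 (SE 0.11, limma adjusted p = 0.0060). The next enzymes did not pass the test: Mvk, mevalonate kinase, had means of 9.91 ± 2.39 and 7.97 ± 0.533 FPKM, and Pmvk, which adds the next phosphate, 15.8 ± 1.21 and 15.8 ± 1.49 FPKM. Mvk spread widely among wt libraries, at 11.1, 7.16 and 11.5 FPKM. Acat2, the cytosolic thiolase, and Mvd, the mevalonate decarboxylase, did not pass either.

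In the isoprenoid and squalene steps, Sqle was the only one of 5 called. Sqle encodes squalene epoxidase, the enzyme that oxidizes squalene. It had 23.4, 23.5 and 21.5 FPKM in PaS wt and 14.2, 13.96 and 13.6 in PaS ko libraries. Both groups were tight and far apart, with a log2 fold change of -0.67 (SE 0.12, limma adjusted p = 0.0022). Fdft1, squalene synthase, had 7.74, 10.2 and 10.5 FPKM in wt and 6.13, 7.67 and 6.58 in ko libraries and was not called (limma adjusted p = 0.12). Fdft1 overlaps the cathepsin gene Ctsb, whose group means were 274 to 476 FPKM, and use of strand is not stated, so its values may hold reads of Ctsb. Idi1 was low throughout, at 1.84 ± 0.0491 FPKM in wt and 1.28 ± 0.292 in ko. Fdps, farnesyl diphosphate synthase, was near equal at 7.41 ± 0.302 and 7.38 ± 0.856 FPKM, and Lss, lanosterol synthase, had 2.39 ± 0.287 and 1.96 ± 0.282 FPKM.

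After lanosterol, 3 of 8 enzymes fell. Msmo1, the oxidase that begins removal of the paired methyl groups of lanosterol, had 41.0, 49.8 and 41.5 FPKM in PaS wt and 30.9, 33.4 and 29.4 in PaS ko libraries. Its groups were separated, with a log2 fold change of -0.48 (SE 0.10, limma adjusted p = 0.0060). Hsd17b7, the ketoreductase that ends this demethylation, had 4.70, 6.88 and 5.84 FPKM in wt against 2.43, 2.81 and 2.84 in ko. Its log2 fold change of -0.87 (SE 0.16, limma adjusted p = 0.0022) was the largest fall among the members, but it was -0.49 with a pseudocount of 5, where that of Scd1 was -0.67. Sc5d, the desaturase of the sterol ring, had 26.8, 28.2 and 28.7 FPKM in wt and 20.5, 20.2 and 19.0 in ko (log2 fold change -0.47, SE 0.11, limma adjusted p = 0.018). The other 5 enzymes of this stretch were not called. Ebp, the sterol isomerase, had 31.2 ± 6.89 and 34.4 ± 2.42 FPKM, and Dhcr7, a reductase at the end of the pathway, 6.85 ± 0.723 and 7.93 ± 0.601 FPKM, both nominally higher in ko. Cyp51, the lanosterol demethylase, had 13.3 ± 2.31 and 11.8 ± 0.904 FPKM, Nsdhl, a decarboxylating dehydrogenase, 10.3 ± 0.352 and 9.50 ± 2.06, and Tm7sf2, a sterol reductase, 2.73 ± 0.588 and 2.14 ± 0.485.

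Of the sterol regulators, Srebf2 and Insig1 fell. Srebf2 had 22.0, 20.96 and 23.8 FPKM in PaS wt and 16.7, 16.1 and 14.9 in PaS ko libraries, with a log2 fold change of -0.46 (SE 0.12, limma adjusted p = 0.021). Insig1, the sterol-regulated brake, had 23.3, 20.0 and 21.1 FPKM in wt and 15.3, 17.3 and 15.8 in ko (log2 fold change -0.39, SE 0.11, limma adjusted p = 0.033). The activator and the brake were thus both lower in ko, and neither overlapped between groups. Stard4, a carrier of free cholesterol, had 4.64 ± 0.666 and 3.38 ± 0.928 FPKM, with overlapping libraries, and was not called.

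In the fatty acid branch, 3 of 8 tested members fell, a share of 37.5% beside 33.3% in the sterol branch. The branch medians were -0.16 and -0.26 log2. Acly, the lyase that makes cytosolic acetyl-CoA for both branches, had 56.7, 54.4 and 55.3 FPKM in PaS wt and 34.1, 40.6 and 35.4 in PaS ko libraries (log2 fold change -0.59, SE 0.09, limma adjusted p = 0.00062). Scd1, a desaturase that makes oleate and palmitoleate, had 47.6, 42.4 and 49.5 FPKM in wt and 25.5, 27.4 and 29.0 in ko. The groups were far apart, with a log2 fold change of -0.75 (SE 0.10, limma adjusted p = 0.00016). Scd2, a relative that lies near it on chromosome 19, had 57.3, 54.3 and 50.5 FPKM in wt and 45.2, 38.7 and 42.6 in ko (log2 fold change -0.35, SE 0.09, limma adjusted p = 0.022). The 2 genes are similar in sequence, and how shared reads were split between them is not stated.

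Fatty acid synthase and the factor of the fatty acid branch were not called. Fasn, fatty acid synthase, had 6.38, 5.93 and 6.79 FPKM in PaS wt and 6.24, 6.28 and 6.95 in PaS ko libraries, fully overlapping. Srebf1 had 33.0, 28.0 and 31.2 FPKM in wt and 30.7, 29.1 and 27.3 in ko (log2 fold change -0.08, SE 0.09, limma adjusted p = 0.70). The 2 factor genes thus had different calls in these cells, Srebf2 past the threshold and Srebf1 not, and the difference between them was not tested. Elovl6, which elongates palmitate, had 4.54 ± 0.168 and 3.70 ± 0.637 FPKM and was not called. The desaturases of polyunsaturated fatty acids were not called either, Fads1 with 39.9 ± 6.58 and 37.9 ± 2.41 FPKM and Fads2 with 13.6 ± 1.139 and 15.2 ± 1.197 FPKM.

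**Figure D2:**
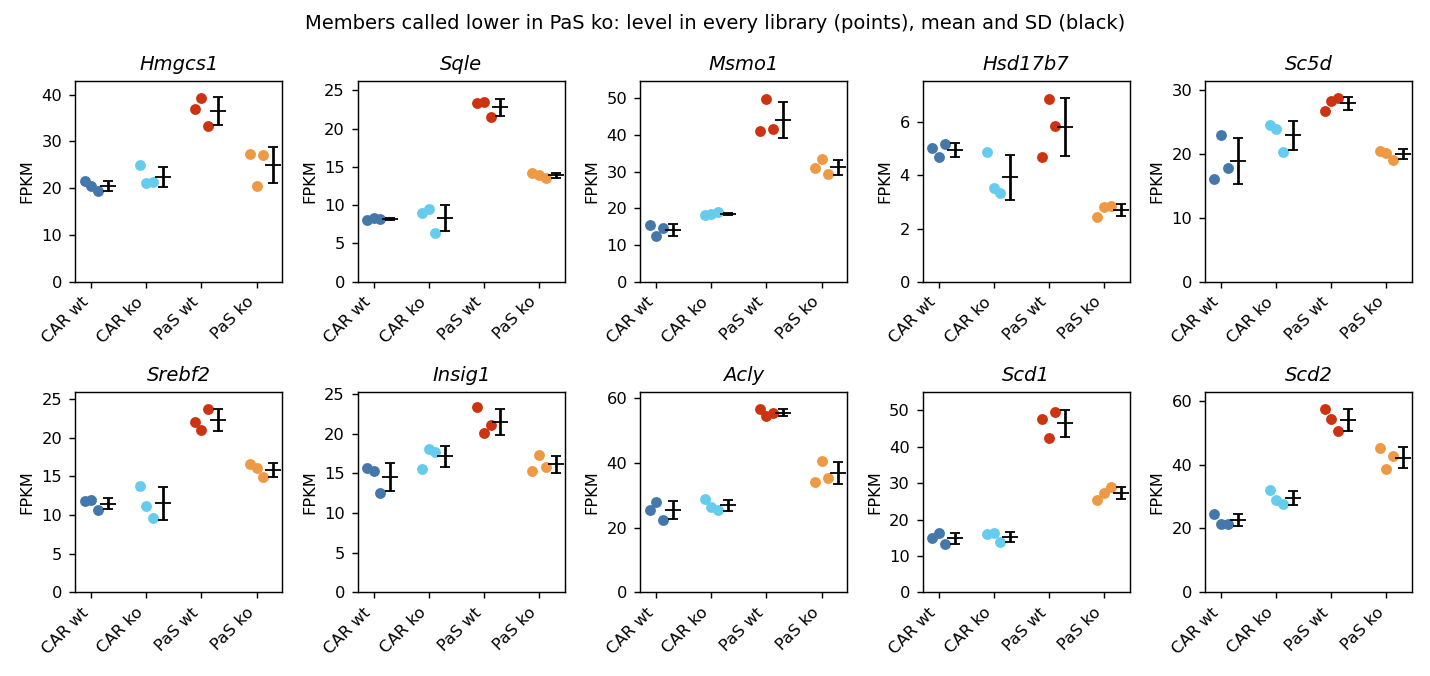
FPKM in every library (points) with the mean and SD of each group (black), for the 10 members that fell in PaS ko cells; all axes start at 0. In each panel the 3 PaS wt points lie above the 3 PaS ko points, while the CAR wt and CAR ko points overlap except for Msmo1 and Scd2.

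Of the 10, Hmgcs1, Sqle, Msmo1, Hsd17b7, Scd1 and Acly were called in each fit that left out 1 library, and Insig1, Srebf2, Sc5d and Scd2 were not. The limma adjusted p of Insig1 was 0.14, 0.073, 0.12 and 0.097 without PaS wt replicates 1 and 3 and PaS ko replicates 1 and 3. That of Srebf2 was 0.061, 0.088, 0.053 and 0.089 without PaS wt replicates 1 and 3 and PaS ko replicates 2 and 3. That of Sc5d was 0.056, 0.063 and 0.073 without PaS wt replicates 2 and 3 and PaS ko replicate 3. That of Scd2 was 0.10, 0.064, 0.11 and 0.059 without PaS wt replicates 1 and 2 and PaS ko replicates 2 and 3. Every log2 fold change of these genes stayed below 0. Without PaS wt replicate 1, the library with fewer zeros, 7 members were called, and without PaS ko replicate 3 there were 6. Of all genes, 5.87% and 5.78% were called in these fits, against 7.44% with all libraries.

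Markers of other cells moved with this comparison. The 8 granulocyte markers, all detected, fell (8 of 8), and their sum was 21228 to 23917 FPKM in PaS wt and 6601 to 6800 in PaS ko libraries. The 7 leukocyte markers summed to 1330 to 1393 and 680 to 692 FPKM, with 2 of 7 lower. Those 2, Lyz2 (means of 1019 and 432 FPKM) and Cd52 (177 and 75.4), carry the fall of the sum, while 4 of the 7, such as Cd74 (117 and 128), had log2 fold changes above 0 that were not called. The 8 PaS and fibroblast markers, among them Ly6a and Cd34, summed to 3546 to 4029 and 2716 to 2806 FPKM, with 6 of 8 lower. Osteoblast markers were higher for 6 of 7, with sums of 2633 to 2824 and 3285 to 3462 FPKM. Of the 8 mature adipocyte markers 4 were tested and 3 rose, with sums of 114 to 123 and 185 to 201 FPKM. Most of that sum was Fabp4, with means of 112 and 153 FPKM. Cfd had 2.26, 2.72 and 2.95 FPKM in PaS wt and 35.0, 30.4 and 32.9 in PaS ko libraries. The lipid droplet genes Plin1 and Cidec, not among the 4 tested, averaged 0.107 and 0.262 FPKM and 0 and 0.522 FPKM. Megakaryocyte markers summed to 344 to 412 and 37.5 to 51.1 FPKM, with 2 of 4 lower, erythroid markers to 3094 to 3810 and 3572 to 3930 FPKM, with 3 of 6 higher, and none of 5 endothelial markers was called by limma. Cell cycle markers rose for 3 of 8, with sums of 84.5 to 94.4 and 115 to 118 FPKM. The part of these cells in the fall of the synthesis genes was not tested.

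**Figure D3:**
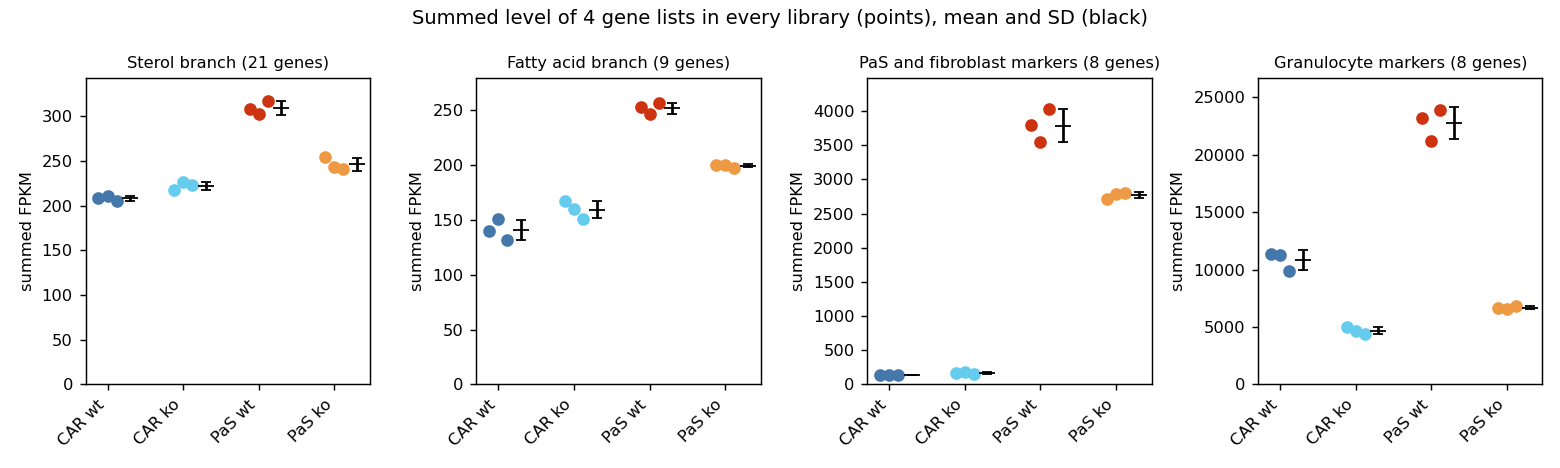
Summed FPKM of the sterol branch, the fatty acid branch, the PaS and fibroblast markers and the granulocyte markers in every library (points), with the mean and SD of each group (black). In PaS cells all 4 sums were lower in ko than in wt, and in CAR cells the granulocyte sum was lower in ko while both branch sums were not.

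In CAR cells few members changed. Msmo1 and Scd2 rose and none fell, 2 of 29 or 6.90%, where 12.3% of all tested genes were called (6.51% higher, 5.74% lower). At an unadjusted p under 0.05 there were 5 members, all higher, a smaller share than the 24.8% of all genes in either direction. The median log2 fold change, ko minus wt, was 0.05 over the members and 0.01 over all genes, with branch medians of 0.03 (sterol) and 0.07 (fatty acid). Msmo1 had 15.6, 12.4 and 14.6 FPKM in CAR wt and 18.3, 18.4 and 18.9 in the CAR ko group (log2 fold change 0.37, SE 0.10, limma adjusted p = 0.024). Scd2 had 24.7, 21.5 and 21.4 FPKM in wt and 31.9, 28.9 and 27.5 in ko (log2 fold change 0.37, SE 0.09, limma adjusted p = 0.012). Both pairs of groups were separated, as were those of Tm7sf2 and Fads1, so that 4 of 29 members had higher ko libraries with no overlap and none lower ones, against 16% and 14% of all genes. Both calls were lost in some fits without 1 library. The limma adjusted p of Msmo1 was 0.10, 0.053, 0.062 and 0.075 without CAR wt replicate 2 and CAR ko replicates 1, 2 and 3. That of Scd2 was 0.0504 and 0.056 without CAR wt replicate 3 and CAR ko replicate 1. The log2 fold changes stayed above 0 in these fits, at 0.28 to 0.43 for Msmo1 and 0.31 to 0.44 for Scd2. Without CAR ko replicate 1 no member was called, where 9.75% of all genes were.

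Other members that fell in PaS cells had these values in CAR wt and CAR ko libraries. Hmgcs1 had 21.5, 20.4 and 19.3 FPKM in wt and 24.8, 21.1 and 21.3 in ko, overlapping. Sqle had 8.09, 8.30 and 8.16 FPKM in wt and 8.97, 9.55 and 6.37 in ko, with a log2 fold change of 0.00 (SE 0.12). Scd1 had 15.0, 16.4 and 13.3 FPKM in wt and 16.0, 16.3 and 13.8 in ko, and Acly 25.4, 28.0 and 22.4 in wt and 28.7, 26.4 and 25.4 in ko. These groups overlapped and none was called. None of the regulators was called either, with Srebf2 at 11.5 ± 0.683 and 11.5 ± 2.09 FPKM, Insig1 at 14.5 ± 1.73 and 17.1 ± 1.35 (unadjusted p = 0.048 in limma, adjusted p = 0.20), and Srebf1 at 19.8 ± 1.80 and 19.3 ± 0.545. Sc5d had 16.0, 22.9 and 17.7 FPKM in wt and 24.5, 23.9 and 20.3 in ko, and Hsd17b7 5.01, 4.68 and 5.197 in wt and 4.89, 3.53 and 3.33 in ko. Without CAR wt replicate 2, the high one for Sc5d, Sc5d was called as higher (limma adjusted p = 0.018). Here too blood cell transcripts moved: the granulocyte markers summed to 9850 to 11377 FPKM in the wt group of CAR cells and to 4425 to 5027 in the ko group, with 8 of 8 lower. Leukocyte markers were lower for 7 of 7, erythroid markers for 6 of 6 and cell cycle markers for 6 of 8, and osteoblast markers were higher for 6 of 7. The seventh, Col1a1, was called as lower, but it was listed at 0 in CAR ko replicates 2 and 3 and at 4677 FPKM in CAR ko replicate 1, and such a 0 in an abundant gene can be a failed estimate. CAR cell markers were lower for 5 of 8, and PaS and fibroblast markers were higher for 3 of 8 and lower for 3. Megakaryocyte markers were lower for 2 of 4, with sums of 180 to 455 FPKM in wt, and CAR ko replicate 2 stood apart at 261 FPKM from the 17.5 and 22.1 of the other ko libraries. The part of these in the CAR values was not tested.

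**Figure D4:**
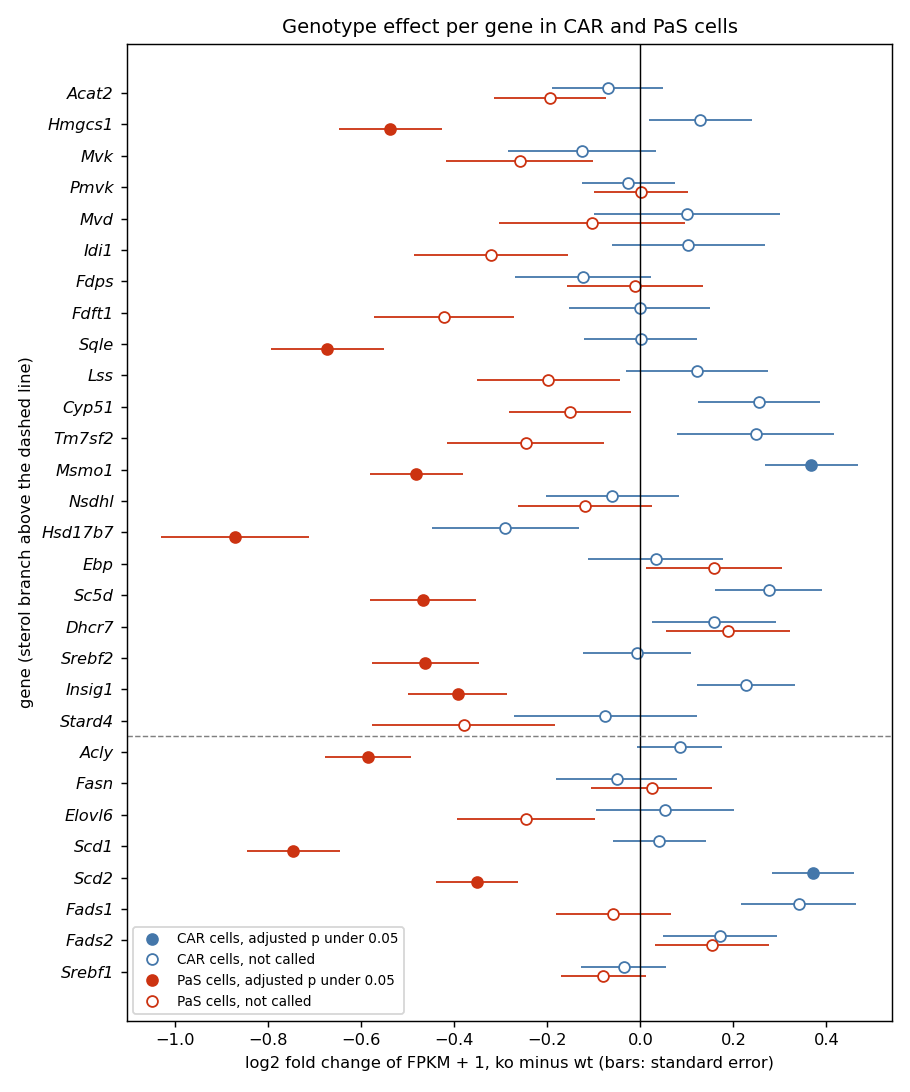
Log2 fold change of FPKM + 1, ko minus wt, for each tested member in CAR cells (blue) and PaS cells (red), with standard errors; filled points passed an adjusted p of 0.05 and open ones did not. Filled red points all lie left of 0 and the 2 filled blue points, Msmo1 and Scd2, lie right of it.

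The genotype effects in the CAR and PaS cells were compared directly. The difference, the log2 fold change in CAR minus that in PaS cells, was called for 8 of 29 members, all above 0. This is 27.6%, against 6.58% of all tested genes (3.32% above 0, 3.26% below). The median difference was 0.40 over the members and 0.02 over all genes, and 12 members had an unadjusted p under 0.05, against 20% of all genes. Of the 8, 5 were sterol genes (median of the branch 0.41) and 3 fatty acid genes (median of the branch 0.35).

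Msmo1 had a difference of 0.85 (SE 0.14, limma adjusted p = 0.0016) and rose in CAR but fell in PaS cells. Scd2, with the same pattern, had 0.72 (SE 0.13, limma adjusted p = 0.0023). Scd1 had 0.79 (SE 0.14, limma adjusted p = 0.0030), Sc5d 0.74 (SE 0.16, limma adjusted p = 0.012) and Acly 0.67 (SE 0.13, limma adjusted p = 0.0050). For Hmgcs1, Sqle and Insig1 the differences were 0.67, 0.67 and 0.62, with limma adjusted p of 0.019, 0.029 and 0.021. Srebf2 (0.46, adjusted p = 0.12) and Hsd17b7 (0.58, adjusted p = 0.15) fell in PaS cells but their differences did not pass the test, and Srebf1 had 0.04 (SE 0.13). The calls of Msmo1, Sc5d, Scd1, Scd2 and Acly held in every fit tried, but that of Sqle was lost in 9 of 12 fits without 1 library (limma adjusted p 0.051 to 0.075), all but those without CAR wt replicate 2, CAR ko replicate 3 or PaS wt replicate 3. The call of Insig1 was lost in 5 of 12 (0.051 to 0.058), without CAR wt replicate 3, CAR ko replicates 2 and 3, PaS wt replicate 1 or PaS ko replicate 1. Without a filter on low genes Hmgcs1 and Sqle had limma adjusted p of 0.053 and 0.057.

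Between the cell types, wt CAR cells had less RNA of most members than wt PaS cells. Of 29, 22 were lower and 3 higher in CAR, where 43.2% of all genes were called (22.7% lower, 20.5% higher). The median log2 difference, CAR minus PaS, was -0.60 over the members and -0.00 over all genes, -0.55 in the sterol and -0.86 in the fatty acid branch. Scd1, Msmo1 and Sqle had differences of -1.58 (SE 0.10), -1.57 (SE 0.10) and -1.37 (SE 0.12), Scd2 of -1.23, Elovl6 of -1.15 and Acly of -1.11. The order of low genes depends on the pseudocount: with 0.1, Idi1 (-1.55) and Elovl6 (-1.54) lay beyond Sqle (-1.47). Elovl6 had 1.40, 1.63 and 1.45 FPKM in CAR wt and 4.63, 4.34 and 4.64 in PaS wt libraries. All 5 genes of the isoprenoid and squalene steps were lower in CAR, as were Srebf2 at -0.90 and Srebf1 at -0.61. Idi1, 1 of those 5, was below 1 FPKM in every CAR library and passed the filter only through PaS libraries. Its call, its rank and its place in the counts of members lower in CAR are therefore no independent support.

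The 3 members higher in wt CAR cells were Fads2, Pmvk and Ebp. Fads2, the first desaturase of polyunsaturated fatty acid synthesis, had 17.3, 24.7 and 22.1 FPKM in CAR wt and 14.05, 12.2 and 14.4 in PaS wt libraries (log2 difference 0.61, SE 0.12, limma adjusted p = 0.00081). Pmvk, phosphomevalonate kinase, had 23.0, 24.0 and 21.4 FPKM in CAR wt and 15.2, 15.1 and 17.2 in PaS wt (log2 difference 0.50, SE 0.10, limma adjusted p = 0.00077). Ebp had 41.1, 37.8 and 41.6 FPKM in CAR wt and 34.2, 23.3 and 36.1 in PaS wt, and its call at a limma adjusted p of 0.048 was lost in 4 of 6 fits without 1 library. Acat2, Hsd17b7, Dhcr7 and Fasn were not called between the wt cell types. Libraries did not overlap for 22 members lower and 3 higher in CAR, against 26.7% and 24.4% of all genes, Fasn being among them and Fads1 not. The calls of Mvk, Tm7sf2 and Stard4 were lost in 4 of 6 fits without 1 library and that of Nsdhl in 5 of 6. Granulocyte markers also differed between these groups, but not in 1 direction: 5 of 8 were lower in CAR wt, among them S100a8 with means of 5424 and 12011 FPKM, which with S100a9 makes up most of the sum, while Elane (483 and 163), Mpo (502 and 149.6) and Prtn3 were higher. Leukocyte markers were lower in CAR for 5 of 7 and endothelial markers for 5 of 5, and cell cycle markers were higher for 8 of 8. Their part was not tested.

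In ko cells the same comparison called 12 members as lower and 2 as higher in CAR, where 36.9% of all genes were called (19.8% lower, 17% higher). The median was -0.34 over the members, -0.30 in the sterol and -0.47 in the fatty acid branch. In the sterol branch 8 of 21 were called, against 18 of 21 in wt cells, and in the fatty acid branch 6 of 8, against 7 of 8. Libraries did not overlap for 17 members lower and 4 higher in CAR, against 25.1% and 22.8% of all genes. Idi1, which passed the filter only through PaS libraries, was among the 17. Whether these counts differ between the branches was not tested. The change of each gene's gap from wt to ko is the same quantity as the difference of genotype effects above. Scd1 went from -1.58 to -0.79, Msmo1 from -1.57 to -0.72, Sqle from -1.37 to -0.70 and Acly from -1.11 to -0.44 (limma adjusted p = 0.0013). Hmgcs1 went from -0.81 to -0.14, Sc5d from -0.55 to 0.19 and Insig1 from -0.54 to 0.08, and these 3 were no longer called in ko cells. Srebf1, at -0.61 and -0.57, Fads2, at 0.61 and 0.63, Pmvk, at 0.50 and 0.47, and Fdps, at -0.66 and -0.77, had nearly the same values in both genotypes.

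**Figure D5:**
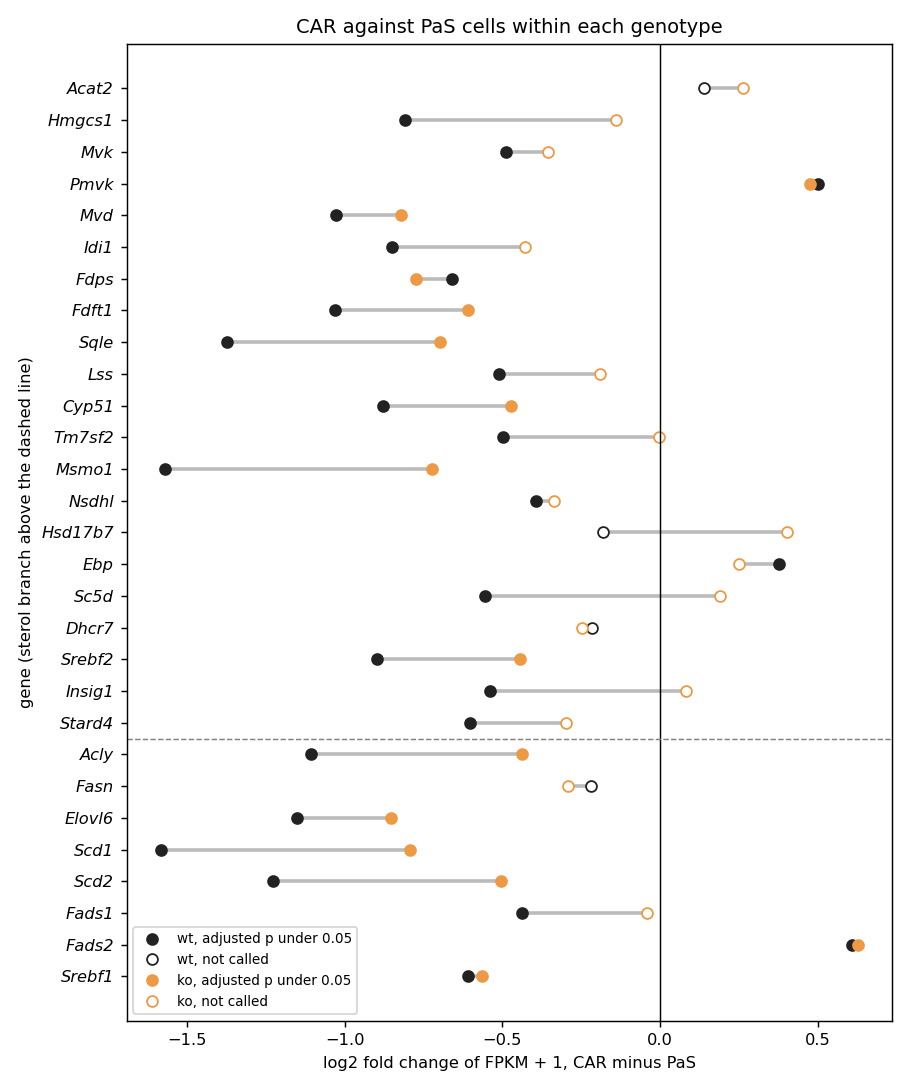
Log2 difference of FPKM + 1 between CAR and PaS cells for each tested member, in wt (black) and ko libraries (orange), joined by a grey bar; filled points passed an adjusted p of 0.05. For Scd1, Msmo1, Sqle, Hmgcs1 and Acly the orange point lies nearer to 0 than the black one, while for Fads2, Pmvk, Fdps and Srebf1 they nearly coincide.

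Other genes of lipid metabolism were read from fixed lists beside the members. Of 12 genes of sterol uptake and trafficking, 1 was called in CAR cells. Gramd1b, which moves cholesterol from the plasma membrane to the endoplasmic reticulum, rose there, with 1.22, 0.367 and 0.437 FPKM in wt and 1.90, 1.37 and 1.85 in ko, and its call was lost in 5 of 6 fits without 1 library.

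None of 8 genes that process SREBP, such as Scap and the site proteases Mbtps1 and Mbtps2, was called by limma for genotype in either cell type, and none had an unadjusted p under 0.05. Of 12 genes of fatty acid activation and glycerolipid synthesis, Dgat1 and Dgat2 fell in PaS ko cells. Dgat2, an acyltransferase that completes triglycerides, had 12.7, 12.4 and 14.3 FPKM in wt and 7.10, 6.81 and 5.16 in ko (log2 fold change -0.95, SE 0.15, limma adjusted p = 0.00054). Dgat1, its unrelated counterpart, had 33.3 ± 0.440 and 24.3 ± 2.68 FPKM (log2 fold change -0.45, SE 0.10, limma adjusted p = 0.0088), a call that ended without PaS ko replicate 3 (0.051). In CAR cells Dgat1 also fell (log2 fold change -0.32, limma adjusted p = 0.042), a call lost in 5 of 6 fits without 1 library, and Mgll, monoglyceride lipase, rose by a log2 fold change of 0.58 (SE 0.13, limma adjusted p = 0.0070).

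Of 16 further fatty acid synthesis and elongation genes, limma called none in PaS ko cells, with 2 at an unadjusted p under 0.05. In CAR ko cells it called Me1 as higher, malic enzyme and a source of NADPH (log2 fold change 0.55, SE 0.13, adjusted p = 0.013), and Mid1ip1 as lower, a partner of acetyl-CoA carboxylase (log2 fold change -0.30, SE 0.08, adjusted p = 0.023). Of 14 fatty acid oxidation genes limma called none in PaS cells, with 1 at an unadjusted p under 0.05, and in CAR cells Acads fell (log2 fold change -0.44, adjusted p = 0.0091). Of 12 genes of sterol efflux and LXR response limma called none in PaS cells, with 3 at an unadjusted p under 0.05. In CAR cells Apoe, the apolipoprotein that carries exported cholesterol, had 2652 ± 85.9 FPKM in wt and 2212 ± 153 in ko and fell (log2 fold change -0.26, limma adjusted p = 0.012), a call lost in 3 of 6 fits without 1 library. Apoe's difference of effects was -0.45 (SE 0.09, limma adjusted p = 0.0059), of opposite sign to those of the 8 called synthesis genes. Without 1 library, the CAR calls of Mid1ip1 and Me1 were lost in 4 and 1 of 6 fits.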

How the data were processed

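RNA was enriched with oligo dT and made into libraries with the SMART-Seq v4 kit, as stated per the labels. TopHat2 2.0.14, Cufflinks 2.2.1, Cuffnorm 2.2.1 and mm10 are named, per the submitters' processing notes. The authors deposited FPKM, 1 table of 24347 symbols per library, per the file headers. Read counts are not used here, so the depth behind a value is unknown. Annotation and strand use are not given in the sources used here, so genes that overlap, such as Fdft1, Tm7sf2, Srebf1 and Acaca with protein-coding neighbours, may share reads. The labels do not say that replicates are separate animals, and p-values then reflect only how far these samples spread, which may be technical.

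Genes at 1 FPKM or more in 3 or more libraries were tested as log2(FPKM + 1), a scale that understates the change of low genes. A model of the 4 groups was fitted to 12938 genes with limma 3.58.1 (trended eBayes, two-sided) in R 4.3.3, with 8 residual degrees of freedom and p-values adjusted by Benjamini-Hochberg over all genes. Errors are SD of 3 libraries or model SE. An exact permutation test of 3 against 3 cannot go below p = 0.1 and was not used. Members and lists were chosen with earlier results of these data known. All members may be named, with library values for those called for genotype and for Srebf1, Srebf2 and Insig1, and up to 4 genes of each other list with the smallest p. Library values of further members were added after they were seen. The fit was tested on simulated data. Alternatives were quantile normalization, median-ratio scaling, pseudocounts of 0.1 and 5, a minimum of 5 FPKM or none, weights per library, a fit to just the groups compared, large zeros as missing, the replicate number as a block and leaving out each library. Figures used matplotlib 3.10.9 and pandas 2.3.3 in Python 3.11.15. The 8 ATAC-seq samples were not analysed here, and some genes of the further lipid lists are not reported here.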

Additional observations from a re-analysis of the deposited data

Results flagged for a closer look

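For 8 members the effect of the genotype differed between CAR and PaS cells by a test of the difference itself (CAR effect minus PaS effect, log2, limma adjusted p under 0.05). In the sterol branch these were Msmo1 at 0.85, Sc5d at 0.74, Sqle at 0.67, Hmgcs1 at 0.67 and Insig1 at 0.62. In the fatty acid branch they were Scd1 at 0.79, Scd2 at 0.72 and Acly at 0.67. Of all tested genes, 6.58% were called in this test. All 8 were lower in each PaS ko library than in each PaS wt library, as were 11.9% of all tested genes. The test of the difference uses these same PaS values, so this separation is not further support. The call for Sqle was lost in 9 of 12 fits that left out 1 library, and that for Insig1 in 5 of 12.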

How the results depend on the processing

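The counts of members called were 10 lower in PaS ko under each of the 10 alternatives that kept all libraries, and 6 to 9 with 1 library left out, the lowest without PaS ko replicate 3. Of all genes, 7.44% were called in the main fit and 5.78% to 6.45% with 1 library left out, also lowest without PaS ko replicate 3. In CAR cells the count of 2 became 1 when only the groups compared were fitted (10.3% of all genes), and 0 to 2 with 1 library left out (8.73% to 9.75% of all genes). The difference of effects was called for 6 to 8 members, wt cell types differed for 19 to 25 and ko cell types for 12 to 15. The shares of all genes over these settings were 3.12% to 8.91%, 28.1% to 48.6% and 24.4% to 41.4%. With the replicate number as a block the counts were 2, 10, 8, 25 and 14, as without it, against 12.3%, 7.43%, 6.48%, 43% and 37% of all genes. Over 8533 genes, deviations from the group means correlated at -0.09 to 0.28 between libraries of the same number in different groups and at -0.22 to 0.15 between other libraries of different groups. With 3 libraries per group this cannot show whether CAR and PaS cells came from the same animals, under these numbers or others. The tests treat the libraries as unpaired.

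Values that changed sign were all near 0 and not called. In CAR cells Sqle was -0.0018 with a pseudocount of 0.1, -0.0070 with median-ratio scaling, -0.0035 with quantile normalization and -0.041 with library weights, and ran from -0.10 to 0.16 without 1 library. With 1 library left out, CAR values ran from -0.13 to 0.10 for Srebf2, -0.035 to 0.11 for Scd1 and -0.11 to 0.0020 for Srebf1, and the difference of effects of Srebf1 from -0.031 to 0.11. The cause was not tested. Genes near 1 FPKM, such as Idi1 and Acaca, can show only large changes on this scale.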
